A study of Mus musculus with 2 samples.

Results

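The 9 genes described here are Klf1, Klf2, Klf3, Klf4, Klf6, Klf7, Klf9, Klf10 and Klf13, taken by name from the 27998 genes of 2 mouse bone marrow single-cell libraries. They were followed over the marker-named cell classes of one library and along the share of globin transcripts in the other. All 9 had a row in the gene table of both libraries. On mm10 (GENCODE M21), they are protein-coding genes on chromosomes 8 (Klf1 and Klf2), 5 (Klf3), 4 (Klf4), 13 (Klf6), 1 (Klf7), 19 (Klf9), 15 (Klf10) and 7 (Klf13). None overlaps another gene of the gene table on its strand. The other 17 Klf and Sp genes of the table served for comparison.

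GFP-expressing CD45+ cells of naive Car1-GFP reporter mice, on a C57BL/6 background, gave the Car1-GFP library. The marrow library was made from CD45+ cells of naive C57BL/6 mice that lacked CD3 and Ly6G at the surface. Each library pooled cells of 3 mice, and 10000 sorted cells were loaded on a 10x Genomics chip (3′ chemistry, version 2). CD45 is the common surface antigen of blood cells, and the reporter marks cells that use Car1, the gene of an erythroid carbonic anhydrase. The removal of CD3+ and Ly6G+ cells is stated for the marrow library alone, so the gates differ in more than GFP. The age and sex of the mice are not given in the sources used here. With 1 pooled library per group there was no spread between animals to test against. Intervals below are exact 95% intervals for counting error alone, and genes count as higher or lower from 2-fold upwards.

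Krüppel-like factors are zinc-finger proteins that share a DNA-binding domain and recognise CACCC and related GC-rich sequences. Some family members act mainly as activators, and others recruit co-repressors such as CtBP or Sin3. In marrow, Klf1 is the activator best known for switching on adult globin and other red-cell genes, and Klf4 and Klf2 are known from monocytes and lymphocytes.

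After filtering, the Car1-GFP library held 2400 cells with a median of 15512.5 UMIs (unique molecular identifiers, counted transcripts) and the marrow library 6268 cells with a median of 1031. Levels are given as CPM, the UMIs of a gene per 1000000 UMIs of the cells summed, and compare a gene between groups of cells. Globin transcripts made up 1.19% of UMIs in the Car1-GFP library and 0.213% in the marrow library, and 14 cell barcodes occurred in both. Ptprc, which encodes CD45, had a UMI in 19.7% of Car1-GFP cells and 31.1% of marrow cells. These shares were not taken at equal depth, and the Car1-GFP cells were the deeper ones. Ly6g transcripts were seen in 8.98% of cells of the marrow library although its gate lacked Ly6G. Clustering left out all 26 Klf and Sp genes, so that the classes did not rest on the genes described. In the marrow library it gave neutrophil-like (33.3% of cells), monocyte-like (26.5%), granulocyte-monocyte progenitor-like (11.2%), plasmacytoid dendritic-like, stem and multipotent progenitor-like (6.96%), erythroid-like (4.34%), NK and innate lymphoid-like, conventional dendritic-like, basophil/mast-like and B lineage-like cells. The stem and multipotent progenitor-like class was a single cluster led by Pf4, Angpt1, Sox4 and Dntt. Its leading genes thus included a megakaryocyte marker (Pf4) and a marker of lymphoid-primed progenitors (Dntt). In the Car1-GFP library, 1633 cells (68.0%) in 8 clusters were erythroid-like, and 2 clusters with 767 cells stayed unnamed. One of them, cluster 0, was led by Vim, Plac8, Gata2, Egr1 and Jun, and the other, cluster 6, by S100a8, Elane and Pf4. In both, erythroid progenitor markers were the best match, with 9 of 10 at least 2-fold above marrow cells. These markers summed to 3514 CPM in cluster 0 and 3416 CPM in cluster 6. Both clusters stayed unnamed because markers of other classes were among their leading genes. All 10 erythroid progenitor markers were detected in the erythroid-like cells of both libraries, with a summed level of 5612 CPM in Car1-GFP and 3946 CPM in marrow. The 10 late erythroid markers were also detected in both, but summed to less in Car1-GFP, 13518 CPM, than in marrow erythroid-like cells, 19916 CPM.

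The first comparison asked which Klf genes differed between the Car1-GFP gate and the marrow gate. Klf1 and Klf9 were higher in the Car1-GFP library, 6 of the 9 genes were lower, and Klf3 lay within 2-fold. For Klf1 the level was 344 CPM (14729 UMIs) in Car1-GFP cells and 31.6 CPM (262 UMIs) in marrow cells, which is a log2 ratio of 3.45 (3.27 to 3.63). Klf9, a factor induced by thyroid and glucocorticoid hormones, had 21.7 CPM in Car1-GFP and 6.38 CPM in marrow cells, a log2 ratio of 1.77 (1.37 to 2.20). Klf3, a repressor that binds CtBP and whose gene is a known Klf1 target, had 50.03 CPM in Car1-GFP and 83.5 CPM in marrow cells (-0.74, -0.86 to -0.61).

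Klf2 and Klf4 had few UMIs in the Car1-GFP library. Klf4, a factor required for monocyte development, had 10 UMIs there (0.234 CPM) and 697 UMIs in marrow cells (83.9 CPM), for a log2 ratio of -8.49 (-9.56 to -7.60). Klf2, a regulator of lymphocyte quiescence and traffic, had 21 UMIs (0.491 CPM) in Car1-GFP and 540 UMIs (65.0 CPM) in marrow cells (-7.05, -7.75 to -6.42). These UMIs lay in 20 Car1-GFP cells for Klf2 and 9 for Klf4, and the 2 unnamed clusters held 9 and 5 of the UMIs. The remaining 4 genes were lower by less. Klf6 had 6.43 CPM in Car1-GFP and 72.7 CPM in marrow cells (-3.50). Klf7 had 5.09 CPM in Car1-GFP and 34.4 CPM in marrow cells (-2.76), Klf13 had 45.2 CPM in Car1-GFP and 174 CPM in marrow cells (-1.95), and Klf10 had 16.6 CPM in Car1-GFP and 42.2 CPM in marrow cells (-1.35). Over all 12076 genes with at least 20 UMIs, 54.9% were at least 2-fold apart in one direction or the other, 22.2% higher and 32.7% lower in the Car1-GFP library, with a median log2 ratio of -0.23. The median of the 9 genes was -1.95. Other scalings add 0.22 (TMM) or 0.21 (DESeq2 size factors) to each of these log2 ratios and moved none of the 9 genes across 2-fold.

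No other family member was higher in the Car1-GFP library. Of the 17 other Klf and Sp genes, 8 reached 20 UMIs over both libraries and 7 had no UMI in either. Sp3 (-2.68), Klf8 (-2.47), Sp1 (-2.45), Sp2 (-1.08) and Klf5 (-1.06) were lower in the Car1-GFP library. The shift of 0.22 (TMM) or 0.21 (DESeq2 size factors) would bring Sp2 and Klf5 within 2-fold, but not Sp3, Klf8 or Sp1. Klf16 (-0.85), Sp4 (-0.75) and Klf11 (0.44) lay within 2-fold.

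Because the Car1-GFP cells were 15.05 times deeper at the median, the share of cells with a UMI was also taken after every cell was thinned to 1000 UMIs, which left out 2997 shallower marrow cells and none of the Car1-GFP cells. Klf1 was then seen in 26.8% (25.03 to 28.6) of Car1-GFP cells and 2.20% (1.73 to 2.76) of marrow cells. Klf9 was seen in 2.12% of Car1-GFP cells and 0.520% of marrow cells. The other 7 genes were seen in a smaller share of the Car1-GFP cells, and Klf2 in 0 of 2400. At this thinned depth, 0 allows a share of up to 0.125% by a floor of 3 counts and 0.154% by the exact interval. Before thinning, 0.833% of Car1-GFP cells and 7.90% of marrow cells had a Klf2 UMI. Over all genes with 20 UMIs, 46.4% had the larger share in the Car1-GFP library. Without thinning, 94.2% of Car1-GFP cells had a Klf1 UMI, with a median of 5 and a maximum of 32 per cell, against 2.65% of marrow cells.

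**Figure D1:**
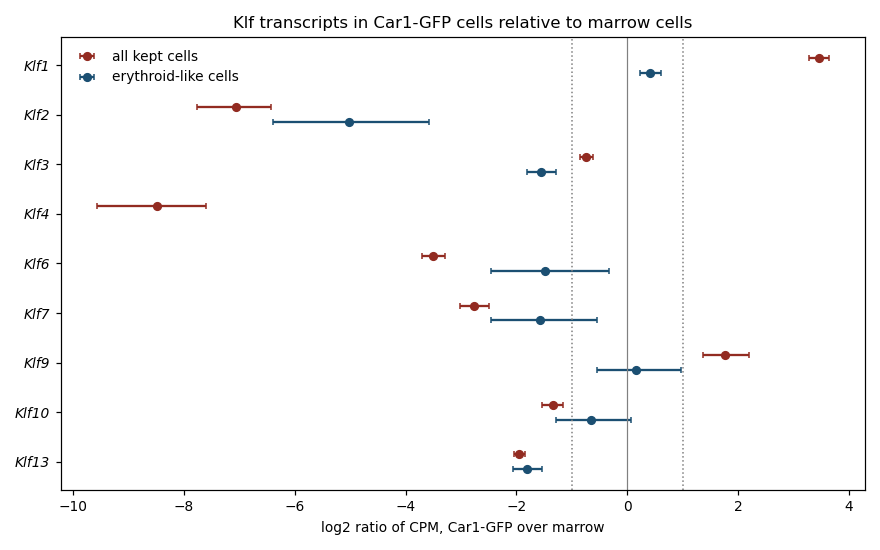
Log2 ratio of CPM, Car1-GFP over marrow, for the 9 Klf genes, over all kept cells (red) and over the erythroid-like cells alone (blue); bars are 95% counting intervals and dotted lines mark 2-fold. Klf1 stands at 3.45 over all cells and at 0.41 between erythroid-like cells, and Klf4 has no value between erythroid-like cells because it had too few UMIs.

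Between the erythroid-like cells of the 2 libraries, Klf1 and Klf9 lay within 2-fold and 5 Klf genes were lower in Car1-GFP. Klf1 had 358 CPM in Car1-GFP and 269 CPM in marrow, a log2 ratio of 0.41 (0.22 to 0.61), and Klf9 had 21.5 CPM in Car1-GFP and 19.2 CPM in marrow (0.16, -0.55 to 0.98). Klf10 also lay within 2-fold, with 15.3 CPM in Car1-GFP and 24.0 CPM in marrow erythroid-like cells (-0.65, -1.29 to 0.07). Klf3 had 51.4 CPM in Car1-GFP and 151 CPM in marrow erythroid-like cells, a log2 ratio of -1.56 (-1.82 to -1.28). Klf13 had 46.7 CPM in Car1-GFP and 163 CPM in marrow (-1.81, -2.06 to -1.54). Klf7 had 4.44 CPM in Car1-GFP and 13.2 CPM in marrow (-1.57, -2.45 to -0.54), with 11 UMIs in the marrow cells. The late erythroid markers were lower in these Car1-GFP cells as well. By globin share per cell the order was not the same. The 136 marrow erythroid-like cells with the least globin had at most 0.203%, and every Car1-GFP cell had at least 0.211%. The other 136 marrow cells had a median of 2.67%. The low-globin marrow group had more Klf3 and Klf13 than the Car1-GFP erythroid-like cells. The part of maturation stage and of free globin RNA in the Klf3 and Klf13 values was not tested. Of the 8 Klf genes with at least 20 UMIs, 5 were lower and none was higher in the Car1-GFP cells, where 40.3% of all 10760 genes were at least 2-fold apart, 12.4% higher and 27.9% lower. Other scalings add 0.32 (TMM) or 0.31 (DESeq2 size factors) to every log2 ratio of this comparison and moved no Klf gene across 2-fold.

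Klf2 and Klf6 were also lower in Car1-GFP erythroid-like cells, with log2 ratios of -5.01 and -1.49 that rest on 9 UMIs each in the marrow cells. Without the restriction to erythroid-like clusters in the Car1-GFP library, the value of Klf6 was -0.75. In the marrow erythroid-like cells Klf2, Klf4 and Klf6 stood at 16.6%, 10.0% and 14.8% of their level in the whole marrow library. S100a8, a neutrophil transcript, stood at 12.9% of its library level in the same cells, and it was found in all 247 of them that could be used after thinning to 1000 UMIs. All 12 neutrophil markers had UMIs in the erythroid-like cells of both libraries, summing to 73.9 CPM in Car1-GFP and 18949 CPM in marrow. At 9, 7 and 9 UMIs, the Klf2, Klf4 and Klf6 levels of marrow erythroid-like cells cannot be told apart from free RNA of other cells, and this limits the Klf2 and Klf6 ratios of this comparison.

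The second comparison placed the 9 genes over the 10 marrow classes with at least 50 cells. Klf1 was concentrated in 1 class, Klf4 had its highest level in monocyte-like cells, Klf2 was spread over monocyte-like, dendritic-like and lymphoid-like cells, and Klf7 had its highest level in neutrophil-like cells. Of 90 pairs of gene and class, 88 gave a ratio of the class over the other marrow cells. In 10 of them (11.4%) the class was at least 2-fold higher, and in 27 (30.7%) at least 2-fold lower. Over all genes the shares of such pairs were 12.1% and 15.1%. All genes are not matched to the 9 Klf genes in level, which limits the comparison of the lower shares.

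Klf1 had 269 CPM (235 to 306) in erythroid-like cells and 5.09 CPM in the other marrow cells, a log2 ratio of 5.72 (5.22 to 6.26). These cells, 4.34% of the library, held 85.5% of the Klf1 UMIs. The next class was stem and multipotent progenitor-like cells with 15.2 CPM (6.93 to 28.8, 9 UMIs), whose interval overlapped those of the basophil/mast-like and B lineage-like cells with 1 UMI each. NK and innate lymphoid-like and conventional dendritic-like cells had 0 UMIs, which allows up to 17.8 and 24.2 CPM.

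Klf4 had 260 CPM (237 to 285) in monocyte-like cells and 34.7 CPM in the other marrow cells (log2 2.91, 2.68 to 3.14), and 67.7% of its UMIs lay in that class. Conventional dendritic-like cells came next with 153 CPM (92.2 to 239), an interval that just reaches the monocyte-like one. Granulocyte-monocyte progenitor-like cells, which precede monocytes, had 63.7 CPM (51.4 to 78.0), with an interval that overlapped those of B lineage-like, plasmacytoid dendritic-like and NK and innate lymphoid-like cells. Neutrophil-like cells had 10.5 CPM (log2 -3.46), near the 8.42 CPM of stem and multipotent progenitor-like and the 8.40 CPM of erythroid-like cells. A cluster of 34 unnamed cells led by BC147527, Ms4a4c and Cd74 had 392 CPM (214 to 658).

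Klf2 had its highest levels in conventional dendritic-like cells with 177 CPM (111 to 268), followed by monocyte-like (135), plasmacytoid dendritic-like (122), NK and innate lymphoid-like (119) and B lineage-like cells (110). Counting intervals of these 5 classes overlapped. The ratio to the other marrow cells passed 2-fold in conventional dendritic-like (log2 1.48) and monocyte-like cells (1.57). It was lower in granulocyte-monocyte progenitor-like (17.8 CPM, -2.08), stem and multipotent progenitor-like (23.6 CPM, -1.53), erythroid-like (10.8 CPM, -2.72) and basophil/mast-like cells (1 UMI, -3.13).

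Klf7, known chiefly from neuronal development, had 73.9 CPM (63.6 to 85.4) in neutrophil-like cells and 17.7 CPM in the other marrow cells (log2 2.06, 1.71 to 2.43), while the median log2 ratio over all genes was -0.90. It was lowest in conventional dendritic-like (1 UMI), monocyte-like (9.92 CPM, -2.06) and granulocyte-monocyte progenitor-like cells (12.3 CPM, -1.67). Its interval in neutrophil-like cells overlapped those of B lineage-like (51.2 CPM, 20.6 to 106) and NK and innate lymphoid-like cells (41.6 CPM, 16.7 to 85.7). Set against the other marrow cells, Klf4 was higher and Klf7 lower in monocyte-like cells, and Klf7 higher and Klf4 lower in neutrophil-like cells. Macrophage-like cells, of which there were 26, had 6 Klf7 UMIs (177 CPM, 64.9 to 385).

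Klf3 had 2 high classes, erythroid-like cells with 151 CPM (126 to 180, log2 0.99) and monocyte-like cells with 143 CPM (126 to 161, log2 1.09), which could not be ordered by counting. Klf13, a factor that binds Sin3a and is known to be needed for normal red-cell maturation in mice, was highest in monocyte-like cells with 323 CPM (297 to 350, log2 1.28), overlapping conventional dendritic-like cells (234 CPM, 156 to 336), and lowest in basophil/mast-like cells with 90.3 CPM (46.7 to 158). Klf10, an early target of TGF-β signalling, had 85.5 CPM (72.5 to 100.02) in monocyte-like cells (log2 1.51), an interval that overlapped those of NK and innate lymphoid-like cells (59.4 CPM, 28.5 to 109) and conventional dendritic-like cells (48.3 CPM, 17.7 to 105). Klf6, an activator known from macrophage inflammatory responses, had 119 CPM in monocyte-like (0.99) and 96.9 CPM in neutrophil-like cells (0.63). Klf9 had only 53 UMIs in the marrow library, 16 of them in erythroid-like cells (19.2 CPM, log2 1.95) and 8 in stem and multipotent progenitor-like cells (13.5 CPM, log2 1.21, -0.09 to 2.31).

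**Figure D2:**
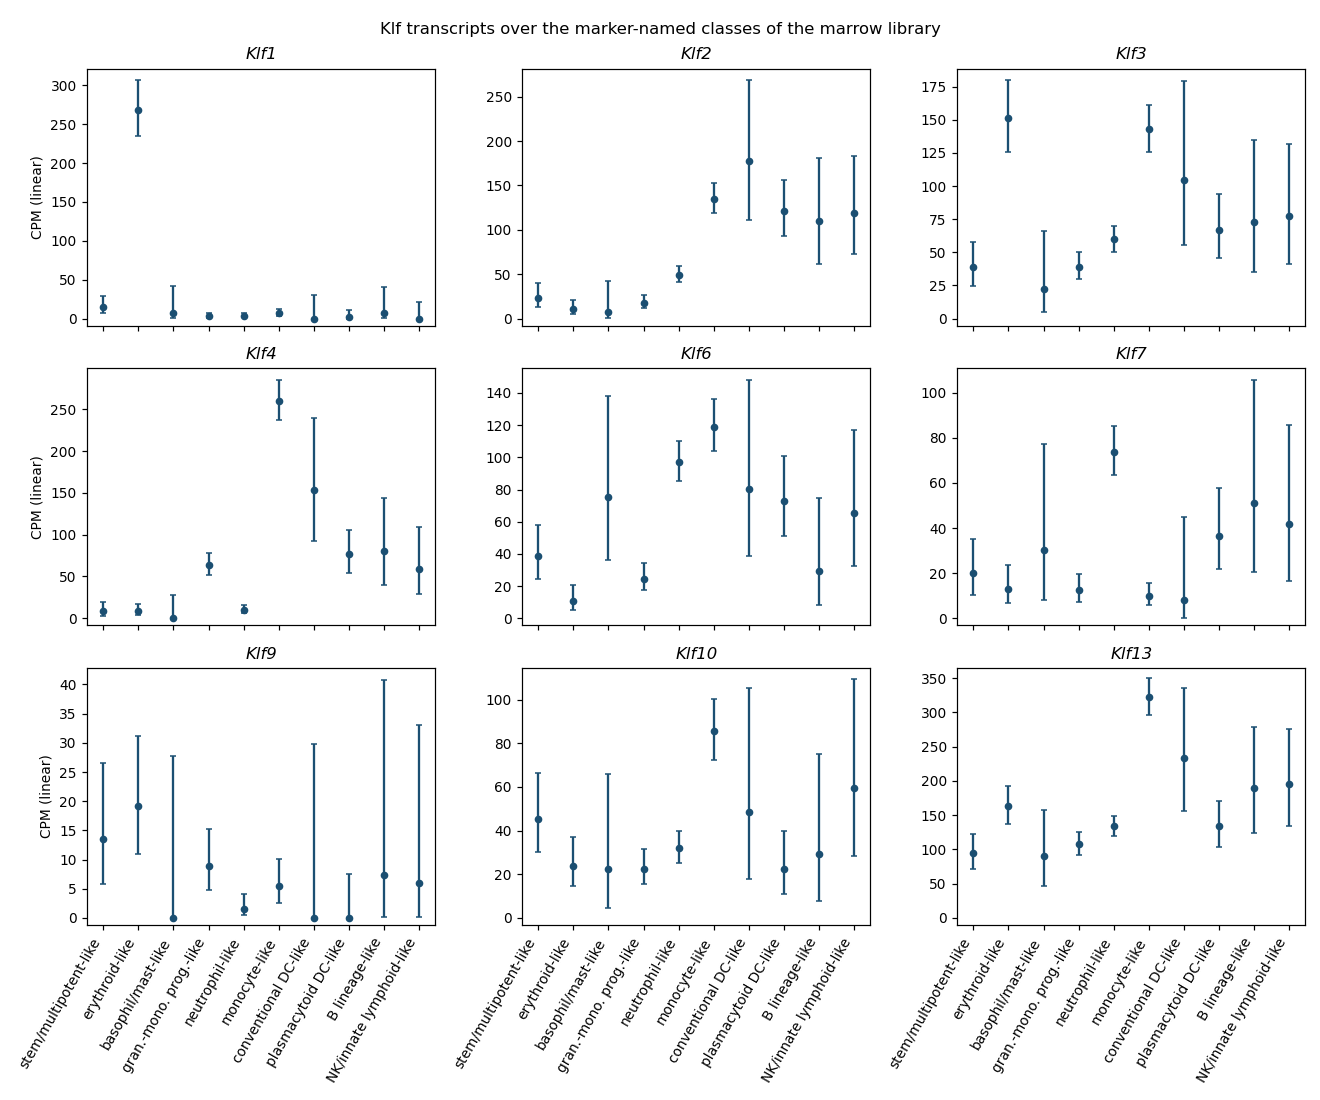
CPM of the 9 Klf genes in the 10 marrow classes with at least 50 cells; points are summed over the cells of a class and bars are 95% Poisson intervals. Each panel has its own linear axis: Klf1 stands at 269 CPM in erythroid-like cells, Klf4 at 260 CPM in monocyte-like cells and Klf7 at 73.9 CPM in neutrophil-like cells.

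Classes differed in the number of Klf genes that were low. Granulocyte-monocyte progenitor-like cells had 6 of 9 genes at least 2-fold lower than the other marrow cells and none higher, and monocyte-like cells had 5 higher and 2 lower. Klf10 was among the 6 in the progenitor-like class (log2 -1.04) and lay within 2-fold in 4 of 8 alternatives. Over all genes, 5.43% were higher and 13.3% lower in the progenitor-like class, and 9.97% higher and 12.3% lower in the monocyte-like class. Neutrophil-like cells had 1 Klf gene higher and 3 lower, where 4.45% of all genes were higher and 45.7% lower. Erythroid-like cells had 2 higher and 4 lower (17.1% and 22.4% of all genes), and stem and multipotent progenitor-like cells 1 higher and 4 lower (15.8% and 10.6%). Basophil/mast-like cells had none higher and 4 lower (13.7% and 8.82%), B lineage-like cells none higher and 2 lower (13.3% and 7.88%), and plasmacytoid dendritic-like cells none higher and 1 lower (14.2% and 10.7%). Conventional dendritic-like cells had 1 higher and 1 lower (14.8% and 9.20%). NK and innate lymphoid-like cells had no Klf gene past 2-fold in either direction (11.9% of all genes were higher and 10.5% lower). Across the 10 classes the level of Klf3 correlated with that of Klf13 (Pearson r = 0.85) and the level of Klf2 with that of Klf4 (r = 0.83). The classes share 1 library and its free RNA, and these values are descriptions. The gene whose level over the classes was most like Klf1 was Ermap, an erythroid membrane protein gene (r = 0.996 over 10 classes, among 6867 genes), followed by Mt2 and Ces2g. Most like Klf2 was Ptpn1 (0.95), most like Klf4 was Mnda (0.96), most like Klf6 was Fcer1g (0.95), and most like Klf7 was Cyfip2 (0.93). The leading genes for Klf10, Klf13 and Klf3 were Metrnl (0.93), Samhd1 (0.92) and Bbip1 (0.90).

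In the marrow library 2 of the classes consisted of a pair of clusters, and Klf genes differed within both. Monocyte-like cells comprised cluster 3, led by genes such as Gngt2 and Clec4a3, and cluster 1, led by genes such as Fn1 and F13a1. Klf2 had 254 CPM in cluster 3 and 81.5 CPM in cluster 1, a log2 ratio of 1.64 (1.27 to 2.02). Klf4 ran the other way with 173 CPM in cluster 3 and 300 CPM in cluster 1 (-0.80, -1.13 to -0.47), short of 2-fold. Klf3 (0.65), Klf10 (0.65), Klf13 (0.33) and Klf6 (0.27) lay within 2-fold. Across all genes 17.2% were at least 2-fold apart between these clusters, 6.65% higher and 10.6% lower in cluster 3.

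Neutrophil-like cells comprised cluster 4, led by Mmp8, Mmp9 and Retnlg, and cluster 0, led by Fcnb, Camp and Ngp. Klf2 had 110 CPM in cluster 4 and 32.2 CPM in cluster 0 (log2 1.77, 1.24 to 2.31). Klf7 had 125 CPM in cluster 4 and 59.3 CPM in cluster 0 (1.07, 0.62 to 1.52), and Klf3 had 99.3 CPM in cluster 4 and 48.4 CPM in cluster 0 (1.04, 0.53 to 1.53). Klf10 was lower, with 14.4 CPM in cluster 4 and 36.9 CPM in cluster 0 (-1.35, -2.62 to -0.30). Klf13 had 134 CPM in both (-0.01, -0.40 to 0.37). The share of all genes at least 2-fold apart was 23.6%, with 5.81% higher and 17.8% lower in cluster 4.

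**Figure D3:**
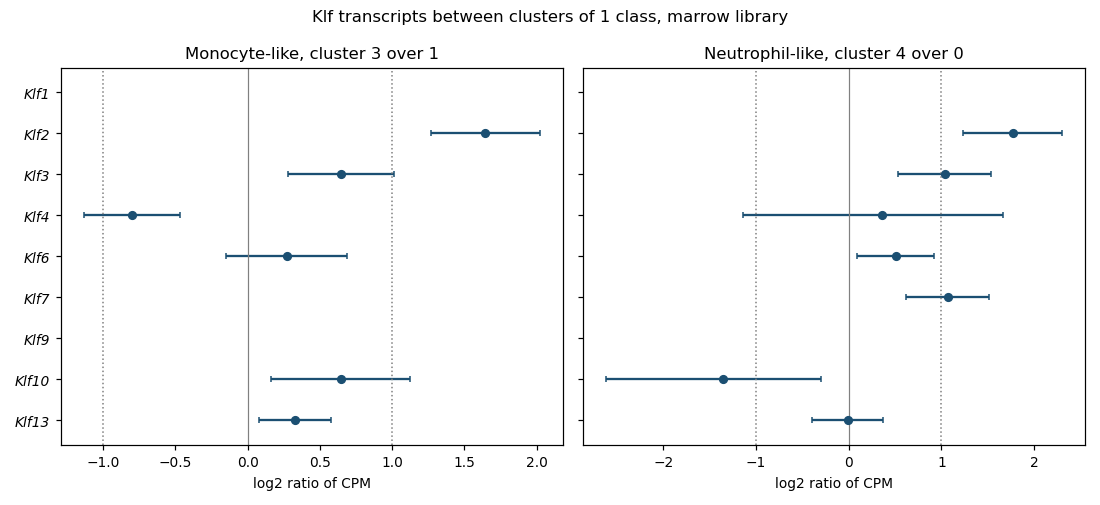
Log2 ratio of CPM of the Klf genes between the 2 clusters of monocyte-like cells (left, cluster 3 over 1) and of neutrophil-like cells (right, cluster 4 over 0); bars are 95% counting intervals and dotted lines mark 2-fold. Klf2 is higher in cluster 3 (1.64) and in cluster 4 (1.77), while Klf4 stands at -0.80 in monocyte-like cells; genes without a point had under 20 UMIs.

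The third comparison followed the genes along the share of globin UMIs in Car1-GFP cells, a measure that uses none of them. The 2400 cells were ordered by that share and cut into 10 bins of 240 cells, bin 1 with the least globin and bin 10 with the most. Klf13 was at least 2-fold higher and Klf9 at least 2-fold lower in bin 10 than in bin 1. Klf1 and Klf3 were higher by less than 2-fold. The 4 genes lie on separate chromosomes, and RefSeq promoters (GRCm38.p6, the assembly of mm10) were found for 8 of the 9 Klf genes. The 250 bases before the RefSeq transcription start are shown for these 4 because their levels differ along globin share. In GENCODE M21 the Klf1 and Klf3 genes start at 84901928 and 64803388, inside the stretches shown. Capitals mark GATAA, the core of the site bound by GATA factors, and CACCC, the core of sites bound by Klf factors. Both strands were searched, so TTATC and GGGTG are the same motifs on the other strand, and in these stretches the 2 motifs do not overlap. The regions are chr8:84901732-84901981 (plus strand) for Klf1, chr5:64803271-64803520 (plus) for Klf3, chr7:63938916-63939165 (minus) for Klf13 and chr19:23140976-23141225 (plus) for Klf9.
Klf1: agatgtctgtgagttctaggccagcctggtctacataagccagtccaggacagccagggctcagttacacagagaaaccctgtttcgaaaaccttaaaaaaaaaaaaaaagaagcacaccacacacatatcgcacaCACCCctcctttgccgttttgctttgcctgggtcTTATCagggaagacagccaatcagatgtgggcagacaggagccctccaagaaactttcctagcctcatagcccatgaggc
Klf3: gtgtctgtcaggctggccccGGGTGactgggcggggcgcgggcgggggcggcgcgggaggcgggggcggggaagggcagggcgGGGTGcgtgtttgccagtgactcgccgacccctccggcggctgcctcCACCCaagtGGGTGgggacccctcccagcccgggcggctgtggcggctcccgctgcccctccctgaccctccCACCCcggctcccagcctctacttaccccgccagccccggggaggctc
Klf13: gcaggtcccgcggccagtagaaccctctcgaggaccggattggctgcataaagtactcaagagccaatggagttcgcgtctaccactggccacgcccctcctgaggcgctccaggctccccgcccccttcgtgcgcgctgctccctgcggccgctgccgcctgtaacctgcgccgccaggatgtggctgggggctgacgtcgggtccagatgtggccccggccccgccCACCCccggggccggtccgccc
Klf9: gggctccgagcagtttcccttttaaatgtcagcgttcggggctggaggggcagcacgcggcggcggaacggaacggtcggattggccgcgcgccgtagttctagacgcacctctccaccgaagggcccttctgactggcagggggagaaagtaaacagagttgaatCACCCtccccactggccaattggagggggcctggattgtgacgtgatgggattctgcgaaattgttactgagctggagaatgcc
Of the 8 promoters, that of Klf1 alone held a GATAA match, 75 bases before the RefSeq start, and 23.0% of 27025 RefSeq promoters hold one in this window. CACCC was present in 6 of the 8, with 5 matches in Klf3 and 1 each in Klf1, Klf9 and Klf13, and in 51.3% of all promoters. GGGCGG was present in 6 (32.9% of all) and CCAAT in 4 (34.5% of all). The serum response element core (CArG box) was in none (1.40% of all). Such matches describe the sequence and are not evidence of binding.

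Bins 1 to 8 spanned a narrow range of 0.211% to 0.748% globin, bin 9 reached 2.16%, and bin 10 ran from 2.16% to 54.0%. The medians of bins 1 and 8 were 0.446% and 0.673%. The part of free globin RNA in these low shares was not tested, and the order of bins 1 to 8 need not follow maturation. Klf13 had 80.9 CPM in bin 10 and 36.1 CPM in bin 1 (log2 1.17, 0.87 to 1.46). Its level lay between 33.4 and 45.5 CPM over bins 1 to 8 and was 63.0 CPM in bin 9. With 5 bins in place of 10 the ratio was 0.97, under 2-fold. Klf9 had 11.3 CPM in bin 10 and 27.7 CPM in bin 1 (-1.30, -1.84 to -0.78). It stood between 19.996 and 27.8 CPM over bins 1 to 8 and at 12.1 CPM in bin 9.

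Klf1 had 479 CPM in bin 10 and 295 CPM in bin 1 (0.70, 0.59 to 0.81), with intermediate values of 311 to 354 CPM in bins 2 to 8 and 415 CPM in bin 9. Klf3 had 78.5 CPM in bin 10 and 41.6 CPM in bin 1 (0.92, 0.64 to 1.20). Klf10 (0.24), Klf7 (-0.33) and Klf6 (-0.66) had intervals that included 0, and Klf2 and Klf4 had too few UMIs. Of the 8928 genes with 20 UMIs, 21.6% were at least 2-fold apart along this axis, 6.25% higher and 15.3% lower, with a median log2 ratio of -0.24. Without the 2 unnamed clusters the values were 1.04 for Klf13, -1.46 for Klf9, 0.64 for Klf1 and 0.95 for Klf3. S100a8 had 92.4 CPM in bin 10 and 288 CPM in bin 1, and its part in these values was not tested.

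Fixed limits of globin share set apart the cells with the most globin. Klf1 had 316 CPM (309 to 322) in cells under 0.6% globin, 496 CPM (470 to 523) at 2 to 5% and 491 CPM at 5 to 10%. In the 30 cells with at least 20% globin it had 284 CPM (219 to 363). With globin UMIs left out of the total, Klf1 had 512 CPM at 2 to 5% and 488 CPM in the 30 cells. Klf13 reached 95.1 CPM (75.6 to 118) at 5 to 10% globin and had 31.1 CPM (12.5 to 64.0, 7 UMIs) in the 30 cells. Without globin in the total it had 102 CPM at 5 to 10% and 53.4 CPM in those 30 cells. Klf3 had 92.8 CPM (73.6 to 115) at 5 to 10% globin and 66.6 CPM (37.3 to 110, 15 UMIs) in the 30 cells. Without globin in the total it had 99.8 CPM at 5 to 10% and 114 CPM in the 30 cells. Klf9 had 0 UMIs in these 30 cells. The 10 to 20% class held only 16 cells.

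The same axis was read in the marrow library, where the 272 erythroid-like cells came from another sort and were cut into an upper and a lower group of 136 by globin share. Klf13 again differed, with 248 CPM in the upper and 115 CPM in the lower group (log2 1.11, 0.61 to 1.62). Klf3 had 208 CPM in the upper and 119 CPM in the lower group (0.81, 0.29 to 1.34). Klf1 had 281 CPM in the upper and 262 CPM in the lower group (0.10, -0.30 to 0.50), a difference within counting error. Klf10 had 19.9 CPM in the upper and 26.4 CPM in the lower group (-0.41, -2.08 to 1.06). Klf9 had 3 UMIs in the upper and 13 UMIs in the lower group, too few for a ratio. Of all 4841 genes measured here, 17.6% were at least 2-fold apart, 7.66% higher and 9.89% lower. The groups divide at 0.203 to 0.213% globin, about the lowest share of any Car1-GFP cell (0.211%), so the axes start at different points. The part of free globin RNA in the low Car1-GFP shares was not tested.

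**Figure D4:**
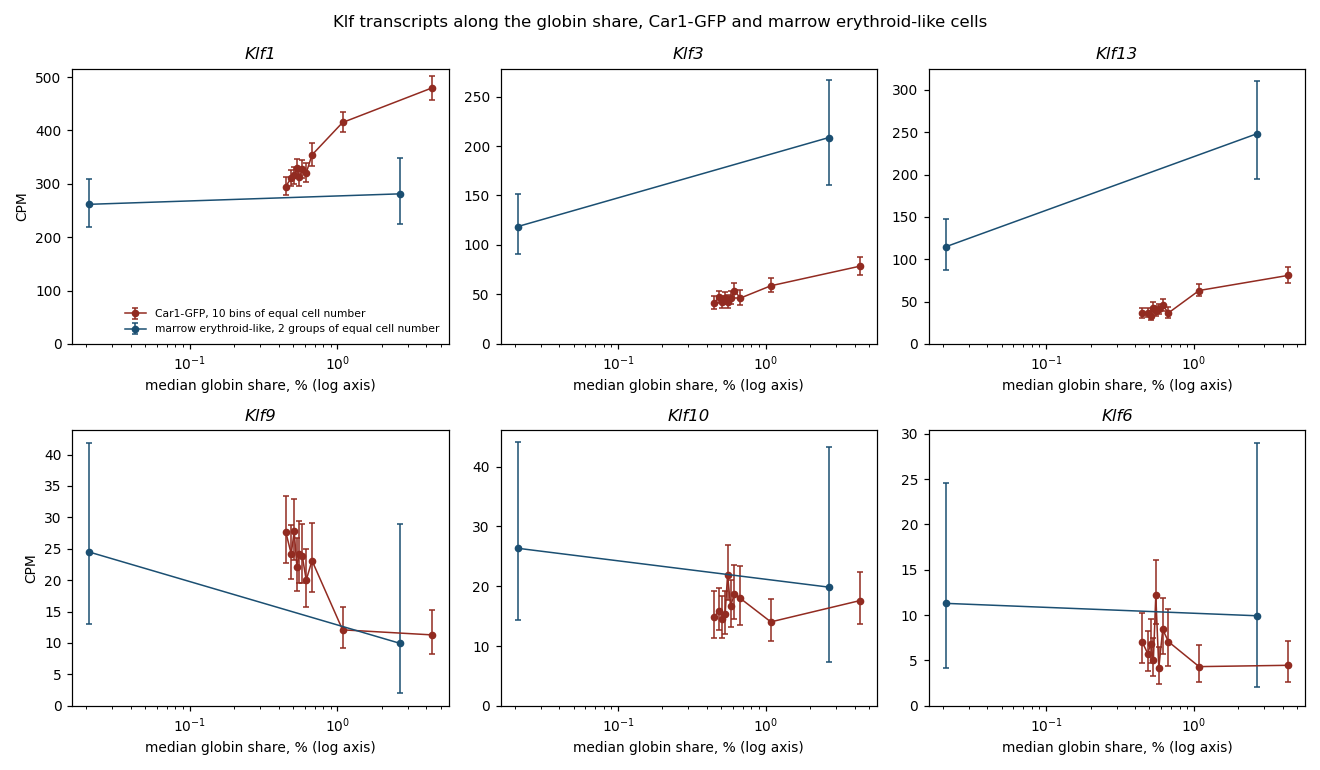
CPM of 6 Klf genes against the median globin share of the cells (log axis), in 10 bins of the Car1-GFP cells (red) and 2 groups of the marrow erythroid-like cells (blue); bars are 95% Poisson intervals. Klf13 and Klf3 are higher at the high-globin end in both libraries, Klf9 is lower in Car1-GFP bins 9 and 10, and Klf1 reaches 479 CPM in bin 10.

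Along this axis the genes most like Klf1 were Nxpe2, Ubac1 and Fth1 (r = 0.99 each over the 10 bins, among 5944 genes). Most like Klf3 was Vopp1 (0.97), most like Klf9 was Galk1 (0.99), and most like Klf13 was Rab3il1 (0.98). No gene came as near to Klf10 (Dnase2a, 0.83). The bins share 1 library, and a steep last bin weighs heavily in each r.

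Other Klf and Sp genes also differed along globin share. Klf5 had 9.19 CPM (35 UMIs) in bin 10 and 1.26 CPM (5 UMIs) in bin 1 (log2 2.87, 1.51 to 4.57). Sp2 had 16.02 CPM in bin 10 and 4.04 CPM in bin 1 (1.99, 1.18 to 2.88), and Klf11 had 12.1 CPM in bin 10 and 5.55 CPM in bin 1 (1.12, 0.36 to 1.93). Sp3 (0.77), Sp4 (0.62), Klf16 (-0.12) and Sp1 (-0.48) lay within 2-fold. In marrow erythroid-like cells Sp3 was higher in the upper globin group, with 122 CPM there and 54.6 CPM in the lower group (1.17, 0.42 to 1.92).

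Known targets of Klf1 and other genes of the erythroid program were read beside it, as a list of 22 genes that includes Hbb-bt and Hbb-bs. These 2 globin genes define the axis and were left out along it, which left 18 measured genes. In bin 10 over bin 1 of globin share, 12 of the 18 were at least 2-fold higher and none lower (median log2 1.49), where 6.25% of all genes were higher and 15.3% lower (median -0.24). Slc4a1, the band 3 anion exchanger, stood at 4.21 and Alas2, the erythroid heme synthesis enzyme, at 4.13. The ratios of Hbb-bt and Hbb-bs, 3.95 and 3.80, were set by the cut. Bcl11a, the fetal globin repressor whose gene Klf1 activates, had 98.2 CPM in bin 10 and 179 CPM in bin 1 (-0.87; named after its values were seen). In the marrow erythroid-like groups, 12 of 17 measured genes other than globin were higher and none lower (median 1.66), where 7.66% of all genes were higher and 9.89% lower. Between the libraries 14 of 20, globin included, were higher in the Car1-GFP cells and 3 lower (median 1.94), beside 22.2% and 32.7% of all genes, with Alad (3.60) and Icam4 (3.43) toward the high end and the cell cycle inhibitor gene Cdkn1b (-4.52) at the low end. Between erythroid-like cells 2 of 20 were higher in Car1-GFP and 7 lower (median -0.70), shares near the 12.4% and 27.9% of all genes.

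The 14 co-factor genes encode CtBP, Sin3, histone deacetylase and acetyltransferase partners of Klf factors, and include Wwp1 and Fbxw7. In the globin and library comparisons they changed at about the rate of all genes. Between the erythroid-like cells 1 of 14 was higher and 6 were lower in Car1-GFP (median -0.73). Of all genes 12.4% were higher and 27.9% lower there (median -0.23). Along globin share 3 of the 14 were at least 2-fold apart, where 21.6% of all genes were. Kat2b was higher in bin 10 (1.56), Ctbp2 (-3.06, 3 UMIs against 26) and Kat2a (-1.17) were lower, and 11 lay within 2-fold, Sap30 (-0.80) among them. Between the libraries 2 of 14 were higher and 5 lower in Car1-GFP, where 22.2% of all genes were higher and 32.7% lower, with Ep300 (-3.12), Kat2b (-2.39), Crebbp (-1.77) and Ctbp2 (-1.41) the furthest from 0. Of 12 genes listed as dependent on Klf2 or Klf4, 10 were measured between the libraries and 9 were lower in Car1-GFP (median -6.61). Of all genes 32.7% were lower and the median was -0.23. Monocyte markers summed to 17.3 CPM over all Car1-GFP cells, against 3037 CPM over all marrow cells. Neutrophil markers, with Cxcr2 of this list among them, summed to 176 against 147669 CPM. The part of cell composition in the count of 9 was not tested, so it is no readout of Klf2 or Klf4 activity. Ly6c2, a surface antigen gene of monocytes, had 6.99 CPM in Car1-GFP and 1221 CPM in marrow cells (-7.45). Il6ra (-8.87, 5 UMIs in Car1-GFP) and Fcgr1 (-8.59, -13.92 to -6.07, 1 UMI) were the lowest. Along globin share only Itgb7 (-0.72) and Ly6c2 (-0.08) were measured, and both lay within 2-fold.

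Klf6 and Klf7 were at least 2-fold higher in an unnamed Car1-GFP cluster, whose best marker match was also erythroid progenitor. Klf6 had 23.3 CPM (93 UMIs) in the unnamed cluster 0 and 3.85 CPM in the erythroid-like cells, a log2 ratio of 2.60 (2.20 to 2.99). Klf7 had 9.01 CPM in cluster 0 and 4.44 CPM in the erythroid-like cells (1.02, 0.46 to 1.55), and Klf10 had 28.5 CPM in cluster 0 and 15.3 CPM in the erythroid-like cells (0.90, 0.60 to 1.19). Klf1 (-0.33), Klf3 (-0.37), Klf13 (-0.24) and Klf9 (0.26) lay within 2-fold. The share of all genes at least 2-fold apart was 18.8%, with 13.2% higher and 5.67% lower in cluster 0. The unnamed cluster 6 had 14.8 CPM of Klf6, and the erythroid-like clusters with at least 100 cells had 1.95 to 5.54 CPM. Klf7 was less particular to cluster 0 (6.31 to 12.5). Its interval there overlapped those of cluster 6 (7.74 CPM) and erythroid-like clusters 1, 2, 5 (6.00 CPM) and 7, but not 3 and 4. For Klf10 the interval in cluster 0 (23.5 to 34.3) overlapped that of erythroid-like cluster 1 (24.2 CPM, 19.7 to 29.3).

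Immediate early genes, switched on within minutes of a stimulus or of handling, were higher in the same cluster. Egr1 had 156 CPM in cluster 0 and 19.6 CPM in the erythroid-like cells (log2 2.99), and Jun had 488 CPM in cluster 0 and 92.4 CPM in the erythroid-like cells (2.40). The log2 ratios of Fos and Junb were 2.50 and 1.56. Gata2, a factor of early progenitors, had 207 CPM in cluster 0 and 33.1 CPM in the erythroid-like cells (2.65), while Gata1 was level (-0.04). Cluster 0 was also shallower, with a median of 6487.5 UMIs against 21136 in the erythroid-like cells. Basophil and mast cell markers summed to 254 CPM in cluster 0 (8 of 9 detected, Cd200r3 at 0) and 40.4 CPM in the erythroid-like cells (8 of 9, Cd200r3 at 0). In the marrow library Gata2 was highest in basophil/mast-like cells, with 625 CPM, against 89.3 CPM in stem and multipotent progenitor-like cells. The part of depth, of the immediate early genes and of these markers in the Klf6 and Klf7 values was not tested. Of 18 immediate early genes 16 were measured between the libraries, 7 higher and 5 lower in Car1-GFP, beside 22.2% and 32.7% of all genes, with Fosb (5.74, 2 marrow UMIs, interval 3.88 to 8.78), Egr1 (4.51) and Jun (4.32) higher. Between erythroid-like cells 9 of 14 were higher in Car1-GFP and 1 lower, where 12.4% of all genes were higher and 27.9% lower. Nr4a1 had 0 UMIs in the Car1-GFP library and 67 in the marrow library, at least 115-fold lower against a floor of 3 UMIs. Along globin share Btg2, an antiproliferative gene, was higher (2.70), and Egr1 (-1.41), Jund (-1.36) and Hspa1b (-1.15) were among 6 that were lower.

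**Figure D5:**
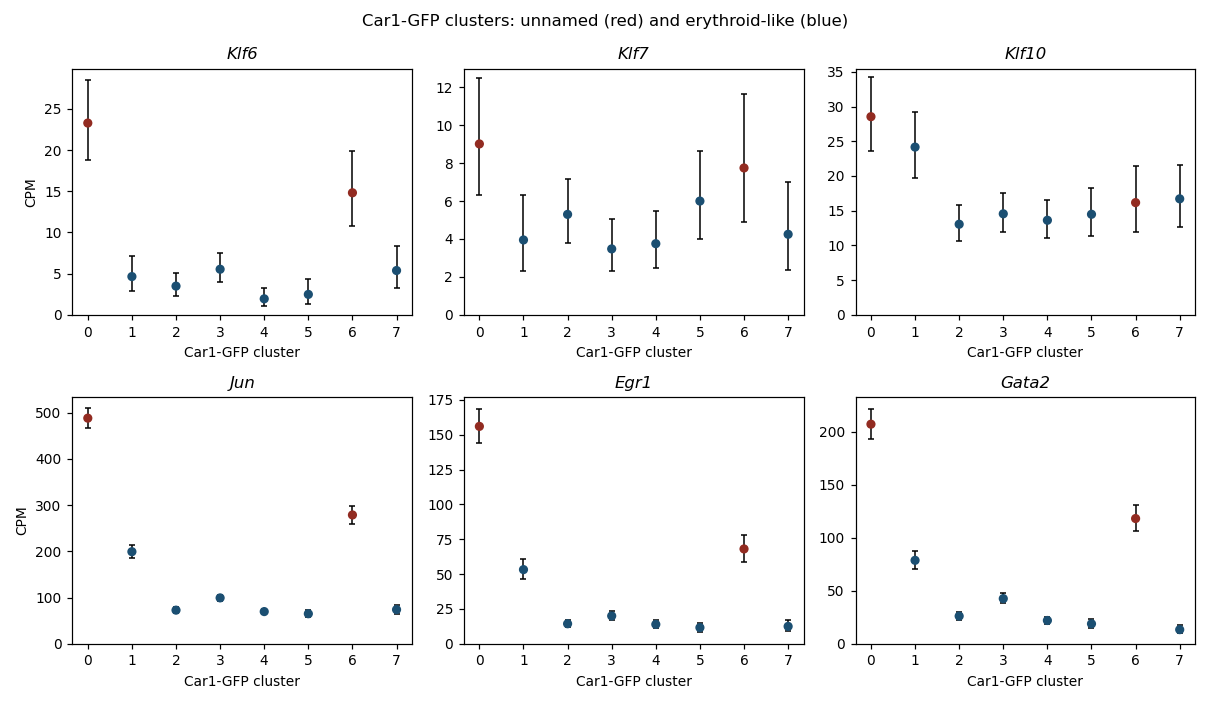
CPM of Klf6, Klf7 and Klf10 (top) and of Jun, Egr1 and Gata2 (bottom) in the 8 Car1-GFP clusters with at least 100 cells; unnamed clusters are red, erythroid-like clusters blue, and bars are 95% Poisson intervals. Klf6 is at 23.3 CPM in cluster 0 and 14.8 CPM in cluster 6, above all erythroid-like clusters shown, and Jun, Egr1 and Gata2 are highest in the same cluster 0.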

How the data were processed

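The authors deposited UMI counts for every gene in every cell barcode, on mm10; Cell Ranger 2.1 and Seurat 2 are named in the submitters' processing notes. Cells under 500 UMIs or with at least 10% mitochondrial UMIs were to be left out; the mitochondrial limit removed cells (122 Car1-GFP, 19 marrow), and 171 marrow cells marked as doublets by Scrublet were removed. In the Car1-GFP library it marked 9 (0.375%), and none were removed. Each library was clustered in scanpy 1.11.5 (2000 variable genes, 30 components, 15 neighbours, Leiden resolution 1, seed 1). A cluster took the class whose markers had the highest mean log2 ratio, with at least 3 markers at 2-fold; stages of one lineage were joined, and a cluster with more leading markers of other classes stayed unnamed; this rule was set after the data were seen. The members, gene lists and markers were chosen with earlier results of these data known. All 9 members were named, every other Klf or Sp gene with 20 UMIs, and up to 4 genes per list with the largest ratios, of which some are not reported here. Summed counts were compared as CPM, with exact Poisson and conditional binomial intervals, tested on simulated data. A count of 0 was set to a floor of 3. Each group is 1 library, so no p-value is given. Alternatives used edgeR 4.0.16 (TMM) and DESeq2 1.42.0 (size factors).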

Additional observations from a re-analysis of the deposited data

Results flagged for a closer look

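Klf10 had opposite signs along globin share in the 2 libraries. Its log2 ratio of globin bin 10 over bin 1 of Car1-GFP cells was 0.24 (-0.29 to 0.77), and that of the upper over the lower globin group of marrow erythroid-like cells was -0.41 (-2.08 to 1.06). The difference was not tested, and both counting intervals include 0. The sign also turned under alternatives in both libraries, with a range of -0.26 to 0.34 and 2 sign changes in Car1-GFP cells, and of -0.51 to 0.10 and 1 sign change in marrow erythroid-like cells.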

How the results depend on the processing

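No paired analysis was possible because each group is 1 pooled library without a replicate number; for the same reason no library could be left out. Counts of Klf genes at least 2-fold apart stayed within 1.5 times their value under the alternatives run, with these exceptions. Along globin share in Car1-GFP cells the count of 2 became 1 with 5 bins, and 1 of 4 genes with every cell thinned to 4000 UMIs. Between the marrow erythroid-like globin groups the count of 1 became 3 without a minimum of UMIs. Without thinning, 7 in place of 2 Klf genes were seen in a larger share of Car1-GFP than of marrow cells; the difference turned round for Klf3 (40.2 percentage points), Klf6 (0.630), Klf7 (4.39), Klf10 (20.2) and Klf13 (27.1). Of the 10 pairs of gene and class called higher, 8 stayed past 2-fold under every alternative run. Klf3 in monocyte-like cells had 0.75 among cells with at least 1000 UMIs, and Klf9 in stem and multipotent progenitor-like cells had 0.999988 there. Of all 88 pairs with a ratio, 20 changed side of a 2-fold limit in at least 1 alternative, so the counts of genes per class depend on the processing. Alternatives without the unnamed Car1-GFP clusters, with fixed limits of globin share, with all Car1-GFP cells or without neutrophil-like marrow cells were chosen after seeing the data. Classes under 200 cells rest on few UMIs, and low levels in marrow classes cannot be told apart from free RNA.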
